A study of Mus musculus with 9 samples.

Results

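The transcripts of fatty acid oxidation, ketone body metabolism and the peroxisome were followed in liver tumours driven by active Notch1. They were chosen by gene name, as 42 genes of these pathways, of which 41 were measured among 19938 genes in all. Acsl1, an acyl-CoA synthetase, was not analysed here. By role, 17 genes belonged to mitochondrial oxidation (16 measured), 2 to ketone body formation and the pyruvate switch, 13 to peroxisomal oxidation and 10 were peroxins, the proteins that build peroxisomes.

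The 5 tumours were hepatocellular carcinomas (HCC) of bitransgenic AFP-Cre/Rosa26-lsl-NICD mice, called AFP-NICD in the labels. In them Cre under the alpha-fetoprotein (AFP) promoter removes a stop cassette (lsl) and turns on NICD, the intracellular domain of Notch1, from the Rosa26 locus. The 4 control samples were healthy livers of monotransgenic Rosa26-lsl-NICD mice, which carry the same silent allele without Cre. All mice were 6 to 12 months old on a hybrid 129 x C57BL/6 background. The AFP promoter acts in the embryonic liver lineage, so recombination is not limited to tumour cells, and a tumour was compared with healthy liver of another genotype. RNA came from whole tissue.

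Expression was measured on 1 microarray per sample, as RMA intensities given here on the log2 scale. A difference of 1 on that scale is 2-fold, and errors are SD with n = 5 HCC arrays and n = 4 control arrays. A gene was called when limma's p-value, adjusted by Benjamini-Hochberg over all 19938 genes, was at most 0.05. By that rule 32 genes were lower and 171 higher in HCC. The array medians ran from 91.5 to 101 before the log2 step. Xist, transcribed from an inactive X chromosome, was 11.14 and 11.13 on HCC arrays 1 and 2 and 4.92 to 5.10 on HCC arrays 3 to 5, against 11.76, 10.68, 10.85 and 4.83 in the 4 control livers. Defining hepatocyte markers were present in the tumours: the summed intensity of 9 markers such as Alb, Ttr and Apoa1 was 62697 to 76810 in HCC and 73661 to 81702 in control liver, and none of the 9 was called. All 9 had a negative log2 change, with a median of -0.21, against 57.5% of all genes.

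Fatty acids reach the mitochondrial matrix as carnitine esters and are then shortened step by step by acyl-CoA dehydrogenases, hydratases, hydroxyacyl-CoA dehydrogenases and thiolases, with electrons passed on by electron transfer flavoprotein. Liver sends much of the resulting acetyl-CoA into ketone bodies during fasting. Peroxisomes take on very long-chain, branched and dicarboxylic fatty acids, and make hydrogen peroxide that catalase removes. Many genes of both routes are targets of the nuclear receptor PPARalpha, encoded by Ppara.

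All 41 genes had a negative log2 change in HCC, against 57.5% of all genes, but none was called, against 0.160% of all genes called lower and 0.858% called higher. Changes ran from -2.14 for Hao1 to -0.0031 for Pex2, with a median of -0.57, and the median over all genes was -0.033. At an unadjusted p below 0.05, 27 of the 41 were lower, against 9.85% of all genes. In 15 of the 41 every HCC array lay below every control array, against 3.86% of all genes. None of the 41 was higher at that p or had every HCC array above every control, against 10.5% and 5.63% of all genes. At least a 2-fold difference was reached by 9 of them, against 1.57% of all genes. Pex13 and Pex7 had the smallest adjusted p, 0.0685 and 0.0695. In RNA of whole tissue, fewer hepatocytes and less RNA per hepatocyte cannot be told apart.

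**Figure D1:**
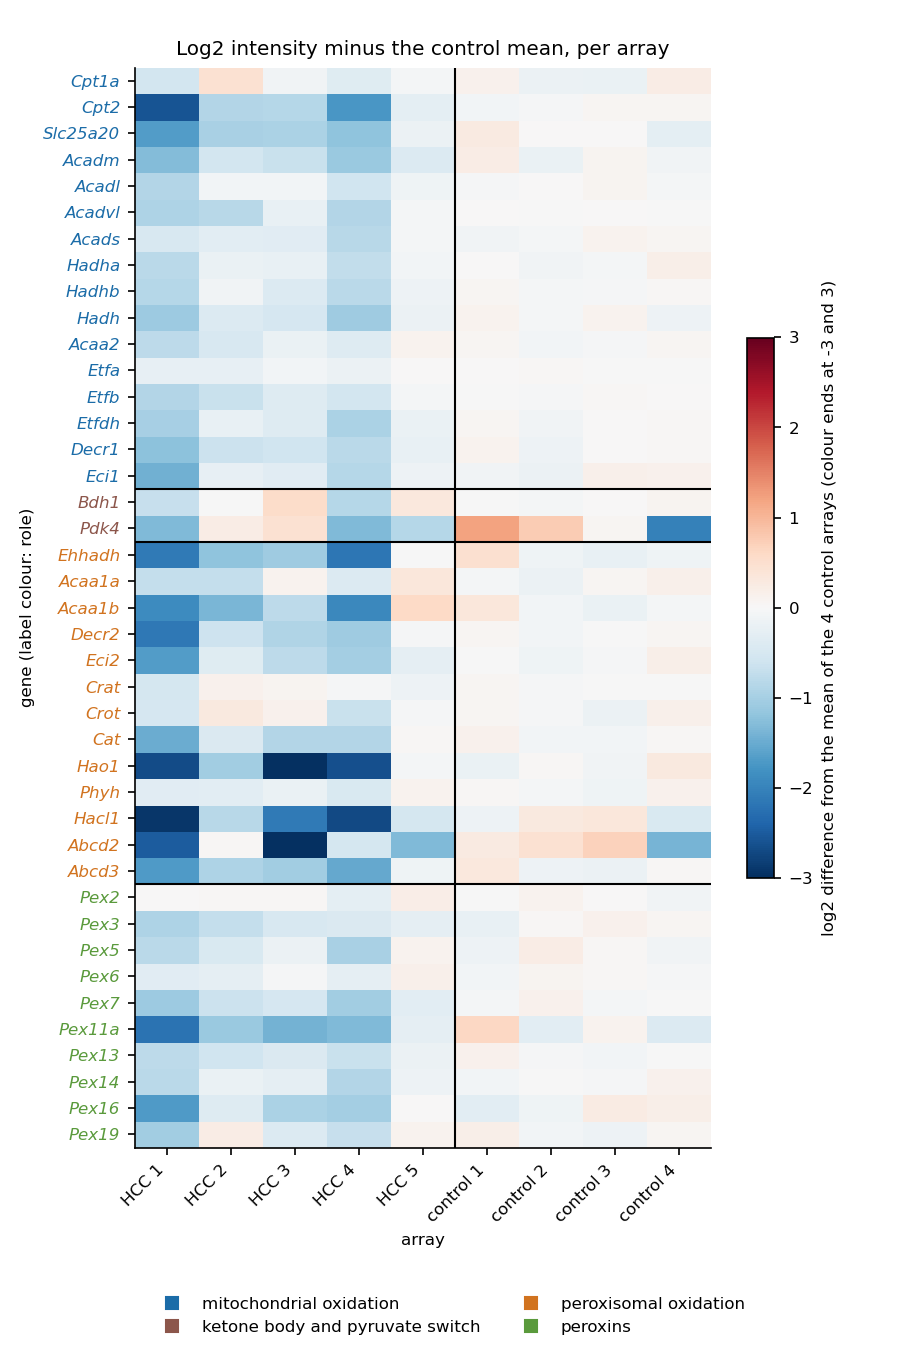
Log2 intensity of the 41 genes (down the page, by role) on the 5 HCC and 4 control arrays (across), as the difference from the mean of the control arrays. Blue is lower and red higher. HCC arrays 1 and 4 are blue in most genes, with means over the 41 genes of -1.21 and -0.95, and HCC array 5 lies near the controls with a mean of -0.12.

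The HCC arrays differed from each other. Averaged over the 41 genes, the difference from the control mean was -1.21, -0.43, -0.61, -0.95 and -0.12 on HCC arrays 1 to 5, against 0.08, -0.02, 0.01 and -0.08 on control arrays 1 to 4. HCC arrays 1 to 5 were the lowest tumour in 29, 1, 2, 9 and 0 of the 41 genes, against 19.6%, 24.2%, 12.9%, 23.3% and 20.0% of all genes. They were the highest tumour in 0, 6, 3, 0 and 32 of them, against 24.5%, 19.7%, 16.3%, 21.5% and 17.9% of all genes. Low values thus gathered on HCC arrays 1 and 4 and high ones on HCC array 5.

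Counted per tumour, 39, 33, 33, 38 and 16 of the 41 genes lay below all 4 controls on HCC arrays 1 to 5. The share of all genes below all controls was 31.3%, 35.0%, 27.5%, 31.9% and 25.2% on the same arrays. On HCC array 5 another 19 of the 41 lay within the control range and 6 above it. The SD was larger in HCC than in control liver for 40 of the 41 genes, against 67.9% of all genes, and the median SD was 0.413 in HCC and 0.126 in control liver. Pdk4 was the exception.

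**Figure D2:**
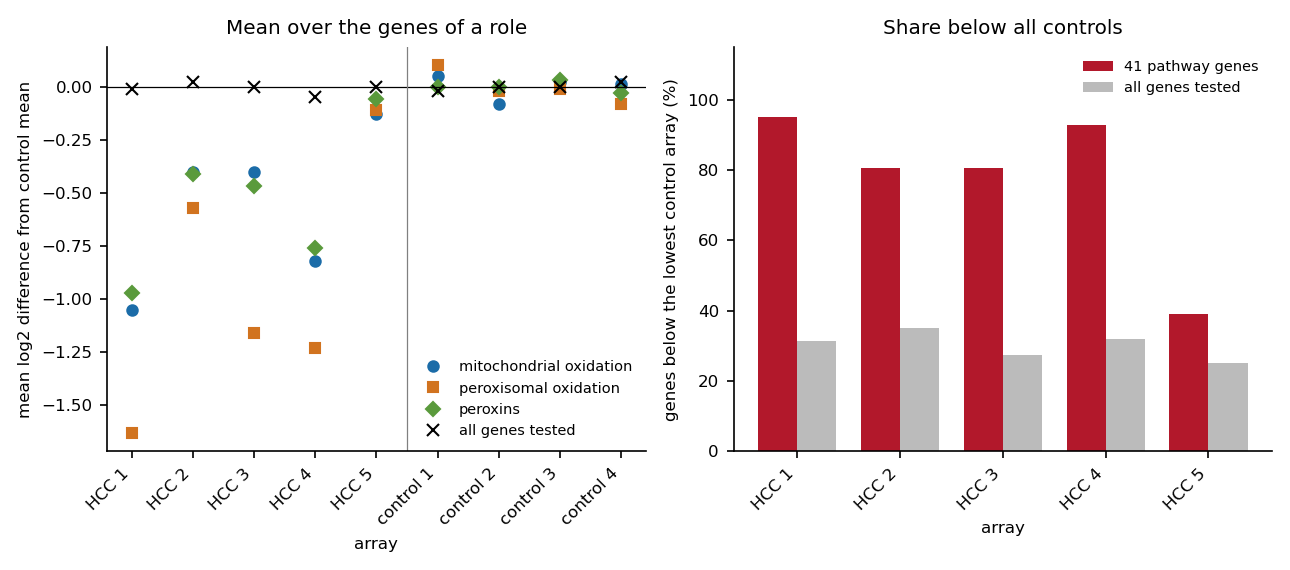
Left, the mean log2 difference from the control mean over the genes of mitochondrial oxidation (16), peroxisomal oxidation (13) and the peroxins (10) and over all 19938 genes, on each array. Right, the percentage of the 41 genes and of all genes that lay below the lowest control array on each HCC array. Peroxisomal oxidation genes are lowest on HCC array 1 at -1.63, and on HCC array 5 all 3 roles lie between -0.13 and -0.06.

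Without HCC array 5, 17 of the 41 genes were lower past the threshold, against 2.79% of all genes: Cpt2, Slc25a20, Acadm, Acadvl, Hadh, Etfb and Decr1 of mitochondrial oxidation, Ehhadh, Acaa1b, Cat, Hao1, Hacl1 and Abcd3 of peroxisomal oxidation, and Pex3, Pex7, Pex11a and Pex13. The median change was then -0.64. Leaving out any other single array gave 0 calls among the 41. HCC array 5 is singled out here because its values were seen to lie nearest the controls. Smaller adjusted p-values without HCC array 5 follow in part from that choice. Here and below they are a description and not evidence of a decrease. Leaving out HCC array 5 raised the calls over all genes to 556 lower and 631 higher, so the larger count was not limited to these pathways. Of the other settings tried on all 9 arrays, 1 of the 41 was lower with dim probe sets left out (0.933% of the genes then tested), 1 with renewed quantile normalisation (0.246% of all genes), 6 with array weights (1.23%) and 1 with Xist in the fit (0.160%). None was lower with array medians subtracted, with a trended and robust variance prior or with a gene's probe sets averaged.

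Markers of other cell types also differed between arrays. Of 7 bile duct markers 1 (Sox9) was called higher and 6 had a positive change (Sox9 2.15, adjusted p = 0.0228, and up to 0.103 with 1 array left out). Their summed intensity was 1232 to 4130 in HCC against 863 to 945 in control liver. Their mean difference from the control mean was 1.89, 1.34, 0.42, 0.80 and 0.86 on HCC arrays 1 to 5. The markers did not share 1 order of tumours. HCC array 1 was the highest tumour in 3 of the 7 (Krt19, Cftr and Onecut1), HCC array 2 in 3 (Krt7, Epcam and Cldn7) and HCC array 4 in 1 (Sox9). Cftr was 10.85 on HCC array 1 and 5.57 to 6.82 on the other tumours, against 4.67 to 5.29 in control liver, while Krt7 on HCC array 1 (7.0) was the lowest of the tumours and inside the control range of 6.83 to 7.30. The 9 hepatocyte markers differed from the control mean by -0.42, -0.05, -0.23, -0.32 and -0.02 on HCC arrays 1 to 5. The 7 endothelial markers differed by -0.80, 0.20, -0.20, -0.41 and -0.17 on HCC arrays 1 to 5, so HCC arrays 1 and 4 were lowest there too. Of these 7, 4 had a negative change and 3 a positive one (Pecam1 0.16, Cdh5 0.098 and Lyve1 0.21). In 1 of the 7, the endothelial receptor Kdr, every HCC array lay below every control, against 3.86% of all genes (log2 change -0.64, adjusted p = 0.113). Without HCC array 5, 2 of the 7 were called lower, Kdr and Tek (adjusted p 0.0486 and 0.0351), against 2.79% of all genes. The 8 macrophage markers differed by -0.74, 1.01, -0.46, -0.33 and -0.65, the 8 lymphocyte markers by -0.27 to 0.35 and the 8 stellate cell markers by -0.33 to 0.15. With all 9 arrays no gene of these 4 lists was called. Among the 8 stellate cell markers 5 had a positive change and 3 a negative one (Lrat -1.19, Dcn -0.53 and Des -0.28), with a median of 0.14. Without HCC array 5 the stellate cell marker Acta2 was called higher (1.34, adjusted p = 0.0304). So were the bile duct markers Sox9 (2.25, adjusted p = 0.00925) and Epcam (1.24, adjusted p = 0.0394). Over all 19938 genes 631 were then called higher. The summed intensity in HCC and in control liver was 1513 to 2703 and 1920 to 2335 for endothelium, 2206 to 8597 and 2101 to 5014 for macrophages, 737 to 1791 and 858 to 1123 for lymphocytes, and 1816 to 4465 and 3721 to 4585 for stellate cells. The part of any of these markers in the values below was not tested.

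In mitochondrial oxidation the carnitine shuttle was uneven. Cpt1a, the outer-membrane transferase that controls entry, was 10.37, 11.37, 10.80, 10.55 and 10.86 on HCC arrays 1 to 5, against 11.05, 10.74, 10.72 and 11.13 on control arrays 1 to 4. HCC array 2 was the highest of the 9 and HCC array 1 the lowest, and the groups overlapped (log2 change -0.12, 95% interval -0.55 to 0.31, adjusted p = 0.756). Under renewed quantile normalisation the Cpt1a change was 0.017, of opposite sign.

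Cpt2, the inner-membrane transferase that restores acyl-CoA in the matrix, measured 8.29, 10.00, 10.01, 9.12 and 10.58 in the 5 HCC, against 10.80, 10.84, 10.93 and 10.92 in control liver. Every tumour lay below every control, most of all HCC array 1, and the controls spanned little (log2 change -1.27, 2.42-fold, SE 0.40, adjusted p = 0.137). Slc25a20, the translocase that exchanges acylcarnitine for carnitine, was 7.89, 8.59, 8.61, 8.36 and 9.39 in HCC and 9.83, 9.58, 9.58 and 9.28 in control liver. Only HCC array 5 exceeded a control (log2 change -1.0, SE 0.26, adjusted p = 0.098). Without HCC array 5, Cpt2 was at -1.52 (adjusted p = 0.0469) and Slc25a20 at -1.20 (adjusted p = 0.0121).

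Within each array Cpt2 minus Cpt1a was -2.09 to -0.29 in HCC and -0.25 to 0.21 in control liver, and the nearest tumour, HCC array 5, lay just outside the control range. The pair was picked with its values known, and no test was made of it. The same difference for Slc25a20 minus Cpt1a overlapped, at -2.78 to -1.47 in HCC and -1.86 to -1.14 in control liver.

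The acyl-CoA dehydrogenases take the first step of each oxidation cycle and divide the work by chain length. Acadm, for medium chains, was 10.92, 11.68, 11.56, 11.11 and 11.80 in HCC and 12.45, 12.01, 12.30 and 12.12 in control liver. No tumour reached the lowest control, HCC array 5 included (log2 change -0.80, 1.75-fold, SE 0.19, adjusted p = 0.0799). Leaving out HCC array 5 gave -0.90 (adjusted p = 0.0314). Acadvl, for very long chains, was 10.61, 10.71, 11.33, 10.66 and 11.50 in HCC against 11.53 to 11.57 in control liver. HCC arrays 1, 2 and 4 stood well below, and HCC arrays 3 and 5 were closer to the controls (log2 change -0.59, adjusted p = 0.151). Without HCC array 5 the change was -0.72 (adjusted p = 0.0366). Acadl for long and Acads for short chains had smaller differences, at -0.36 and -0.41 (adjusted p 0.274 and 0.160).

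The later steps of the cycle had smaller differences than Acadm, but not all had smaller ones than the other acyl-CoA dehydrogenases. Hadh (-0.65) differed more than Acadvl (-0.59), Acads (-0.41) and Acadl (-0.36), while Acaa2 (-0.35) differed less than each of them. Hadha and Hadhb, the subunits of the mitochondrial trifunctional protein, were 10.68 ± 0.34 and 10.24 ± 0.35 in HCC, against 11.09 ± 0.13 and 10.71 ± 0.06 in control liver. Their log2 changes were alike at -0.41 and -0.47 (adjusted p 0.209 and 0.168). Hadhb had 2 probe sets, and only the one with the higher mean is given here. Hadh, the short-chain hydroxyacyl-CoA dehydrogenase, measured 9.90 ± 0.41 in HCC and 10.55 ± 0.13 in control liver with no overlap (adjusted p = 0.127; 0.041 without HCC array 5). Acaa2, the matrix thiolase, was 12.32 ± 0.33 in HCC and 12.67 ± 0.07 in control liver, and HCC array 5 at 12.76 was the highest of the 9 (adjusted p = 0.244).

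Unsaturated fatty acids need auxiliary enzymes. Decr1, the dienoyl-CoA reductase, was 10.95, 11.53, 11.57, 11.38 and 11.96 in HCC and 12.28, 12.03, 12.18 and 12.22 in control liver. The groups did not overlap (log2 change -0.70, SE 0.17, adjusted p = 0.0873; -0.82 and 0.0194 without HCC array 5). Eci1, an enoyl-CoA isomerase, had a log2 change of -0.61 (adjusted p = 0.222), with HCC array 1 at 8.24 far below the other tumours at 8.83 to 9.53.

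Electron transfer flavoprotein has subunits encoded by Etfa and Etfb, and Etfdh encodes the enzyme that passes its electrons to ubiquinone. Etfb was 11.85, 12.06, 12.34, 12.19 and 12.67 in HCC, against 12.70 to 12.78 in control liver (log2 change -0.51, adjusted p = 0.113; -0.63 and 0.0186 without HCC array 5). Etfdh was 10.25 ± 0.39 in HCC and 10.80 ± 0.07 in control liver (adjusted p = 0.155). Neither gene overlapped between the groups. Etfa stayed closer, at 12.41 ± 0.12 in HCC and 12.56 ± 0.03 in control liver (log2 change -0.15, adjusted p = 0.287).

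Across mitochondrial oxidation, 16 of 16 measured genes had a negative change, none was called, 13 had an unadjusted p below 0.05 and 9 did not overlap. Over all genes, 57.5% had a negative change, 9.85% were lower at that p and 3.86% had every HCC array below every control. The median change was -0.53.

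**Figure D3:**
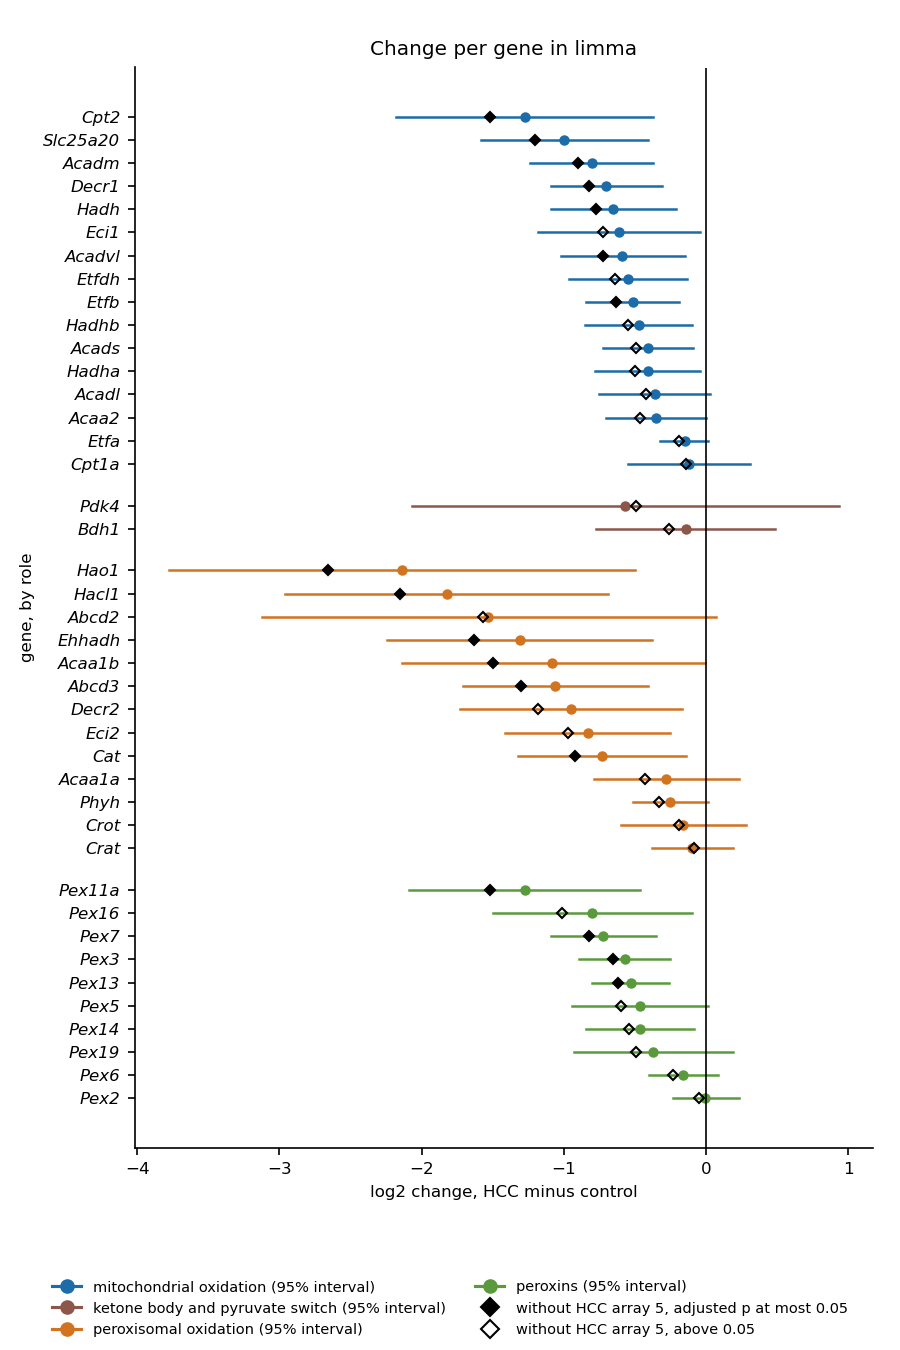
Log2 change, HCC minus control, for the 41 genes by role (down the page), as circles with 95% intervals from limma over all 9 arrays. Diamonds give the change without HCC array 5, filled where the adjusted p was at most 0.05, as in 17 genes. HCC array 5 was chosen with its values seen, so filled diamonds are a description only. All circles lie at or left of 0, and 27 of the 41 intervals lie below 0.

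For ketone bodies and the pyruvate switch the values were scattered. Bdh1, which interconverts acetoacetate and 3-hydroxybutyrate, was 8.0, 8.68, 9.25, 7.84 and 9.02 in HCC, against 8.63 to 8.79 in control liver. HCC arrays 3 and 5 lay above all controls and HCC arrays 1 and 4 below (log2 change -0.14, 95% interval -0.77 to 0.49, adjusted p = 0.802), and the sign turned with array weights (0.074) and without HCC array 4 (0.037). Pdk4, a kinase that shuts off pyruvate dehydrogenase when fatty acids are burned, was 7.31, 8.87, 9.11, 7.32 and 7.78 in HCC and 9.86, 9.40, 8.71 and 6.61 in control liver. Its lowest value of all came from control array 4, where Xist was also low. Among the tumours Pdk4 was highest on HCC array 3, where Xist was low (4.98), and lowest on HCC array 1, where Xist was high (11.14). HCC array 2 had high Xist (11.13) with Pdk4 at 8.87, and HCC arrays 4 and 5 low Xist with Pdk4 at 7.32 and 7.78. When Xist entered the fit as a covariate the Pdk4 change was -0.20 in place of -0.57 (adjusted p 0.885 and 0.661). Leaving out 1 array moved it between -1.25 (without control array 4, adjusted p = 0.275) and -0.16 (without control array 1, adjusted p = 0.928).

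Of 4 other ketone body genes measured, none was called. The mitochondrial thiolase Acat1 was 10.49 ± 0.43 in HCC and 11.08 ± 0.16 in control liver (log2 change -0.59, adjusted p = 0.168), and the cytosolic dehydrogenase Bdh2 8.63 ± 1.09 in HCC and 9.14 ± 0.33 in control liver (-0.52, adjusted p = 0.583; -0.92 and 0.144 without HCC array 5). Oxct1, which lets other tissues use ketone bodies and is low in hepatocytes, was 9.45 on HCC array 1 and 7.47 to 8.26 on the other HCC arrays, against 7.03 to 7.68 in control liver (log2 change 0.75, adjusted p = 0.294), and without HCC array 1 the change was 0.42 (adjusted p = 0.339). The monocarboxylate transporter Slc16a1 had a change of 0.089 (adjusted p = 0.857), whose sign turned under 3 alternatives.

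Peroxisomal oxidation held the largest differences. Hao1, the liver glycolate oxidase of the peroxisome, was 9.10, 10.76, 7.52, 9.16 and 11.73 in HCC and 11.59, 11.82, 11.68 and 12.08 in control liver. HCC arrays 1 to 4 lay below all controls, HCC array 3 furthest, and HCC array 5 lay among them. The log2 change was -2.14 (4.41-fold, SE 0.73, adjusted p = 0.158), and without HCC array 5 it was -2.66 (adjusted p = 0.0366). Its promoter sequence is shown because the difference was the largest of the 41 genes and its CG pairs were few, 4 against a median of 12. RefSeq gives the 250 bases before its start at chr2:134554353-134554602 (GRCm38.p6, minus strand), here 5′ to 3′ with the 4 CG pairs in capitals.
Hao1: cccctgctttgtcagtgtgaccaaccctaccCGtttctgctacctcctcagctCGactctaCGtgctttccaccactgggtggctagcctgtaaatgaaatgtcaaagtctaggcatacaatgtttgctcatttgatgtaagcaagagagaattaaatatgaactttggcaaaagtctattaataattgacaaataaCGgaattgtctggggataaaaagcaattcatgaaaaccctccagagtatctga

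Branched-chain fatty acids are shortened by alpha-oxidation, in which Phyh hydroxylates phytanoyl-CoA and Hacl1 then cleaves the product. Hacl1 was 8.66, 10.74, 9.45, 8.87 and 11.05 in HCC, against 11.42, 11.87, 11.91 and 11.11 in control liver. The groups did not overlap, though HCC array 5 lay just below control array 4 (log2 change -1.82, 3.54-fold, SE 0.50, adjusted p = 0.108; -2.15 and 0.0302 without HCC array 5). Phyh differed less, at 12.79 ± 0.21 in HCC and 13.03 ± 0.11 in control liver (log2 change -0.25, adjusted p = 0.265).

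Straight-chain peroxisomal oxidation runs through the bifunctional enzyme Ehhadh and the thiolases Acaa1a and Acaa1b. Ehhadh was 8.40, 9.31, 9.45, 8.35 and 10.50 in HCC, against 10.99, 10.38, 10.29 and 10.38 in control liver. HCC array 5 lay inside the control range, and the other tumours lay below every control (log2 change -1.31, 2.47-fold, adjusted p = 0.137; -1.63 and 0.0212 without HCC array 5). Acaa1b was 7.68, 8.18, 8.77, 7.62 and 10.16 in HCC and 9.36 to 9.91 in control liver. HCC array 5 was the highest of the 9 arrays (log2 change -1.08, adjusted p = 0.243; -1.50 and 0.0192 without it). Acaa1a was 8.45 ± 0.48 in HCC and 8.73 ± 0.14 in control liver (adjusted p = 0.504). Acaa1a and Acaa1b are near-identical copies whose probe sets can share signal, so their separate values are uncertain.

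The auxiliary enzymes of peroxisomal oxidation of unsaturated chains were Decr2 and Eci2. Decr2, a dienoyl-CoA reductase, was 9.78 ± 0.78 in HCC and 10.73 ± 0.07 in control liver (log2 change -0.95, adjusted p = 0.180). Eci2, an isomerase, was 9.79, 11.08, 10.66, 10.43 and 11.19 in HCC, against 11.33 to 11.63 in control liver. Its groups did not overlap (log2 change -0.83, adjusted p = 0.135). Neither gene was called without HCC array 5 (adjusted p 0.0535 and 0.0551).

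Carnitine acyltransferases carry shortened chains out of the peroxisome. Crat and Crot were 8.41 ± 0.26 and 12.11 ± 0.41 in HCC, against 8.5 ± 0.04 and 12.27 ± 0.14 in control liver. Both had changes near 0 (-0.094 and -0.16), with 95% intervals of -0.38 to 0.19 and -0.60 to 0.28 that leave room for a modest difference in either direction. Without HCC array 1 the Crat change was 0.012, of opposite sign.

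Catalase, encoded by Cat, was 11.58, 12.64, 12.18, 12.20 and 13.11 in HCC, against 13.20, 12.98, 12.99 and 13.11 in control liver. HCC arrays 1 to 4 lay below all controls and HCC array 5 among them (log2 change -0.73, 1.66-fold, adjusted p = 0.172; -0.92 and 0.0372 without HCC array 5).

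Acyl-CoA enters the peroxisome through ABC half-transporters. Abcd3, the abundant form of hepatocytes, was 10.58, 11.35, 11.24, 10.73 and 12.14 in HCC, against 12.58, 12.12, 12.09 and 12.31 in control liver. HCC array 5 was level with the lower controls and the other tumours were well below (log2 change -1.06, 2.09-fold, adjusted p = 0.106; -1.30 and 0.0124 without HCC array 5). Abcd2, which handles very long chains, was 6.55, 9.08, 5.76, 8.51 and 7.71 in HCC and 9.31, 9.50, 9.73 and 7.64 in control liver. Control array 4 was again the lowest control. When Xist entered the fit the log2 change was -1.19 in place of -1.53 (adjusted p 0.374 and 0.263). Among the tumours Xist was high on HCC arrays 1 and 2 (11.14 and 11.13), with Abcd2 at 6.55 and 9.08. It was low on HCC arrays 3 to 5, with Abcd2 at 5.76, 8.51 and 7.71. A link between Abcd2 and Xist was not tested.

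Of the 13 genes of peroxisomal oxidation, 13 had a negative change, none was called, 8 had an unadjusted p below 0.05 and 2 did not overlap, against the same 57.5%, 9.85% and 3.86% of all genes for the negative, nominal and non-overlapping counts. The median was -0.95, against -0.53 for mitochondrial oxidation, and the spread among tumours was also wider, with a median SD of 0.615 against 0.373. The difference between the roles was not tested.

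**Figure D4:**
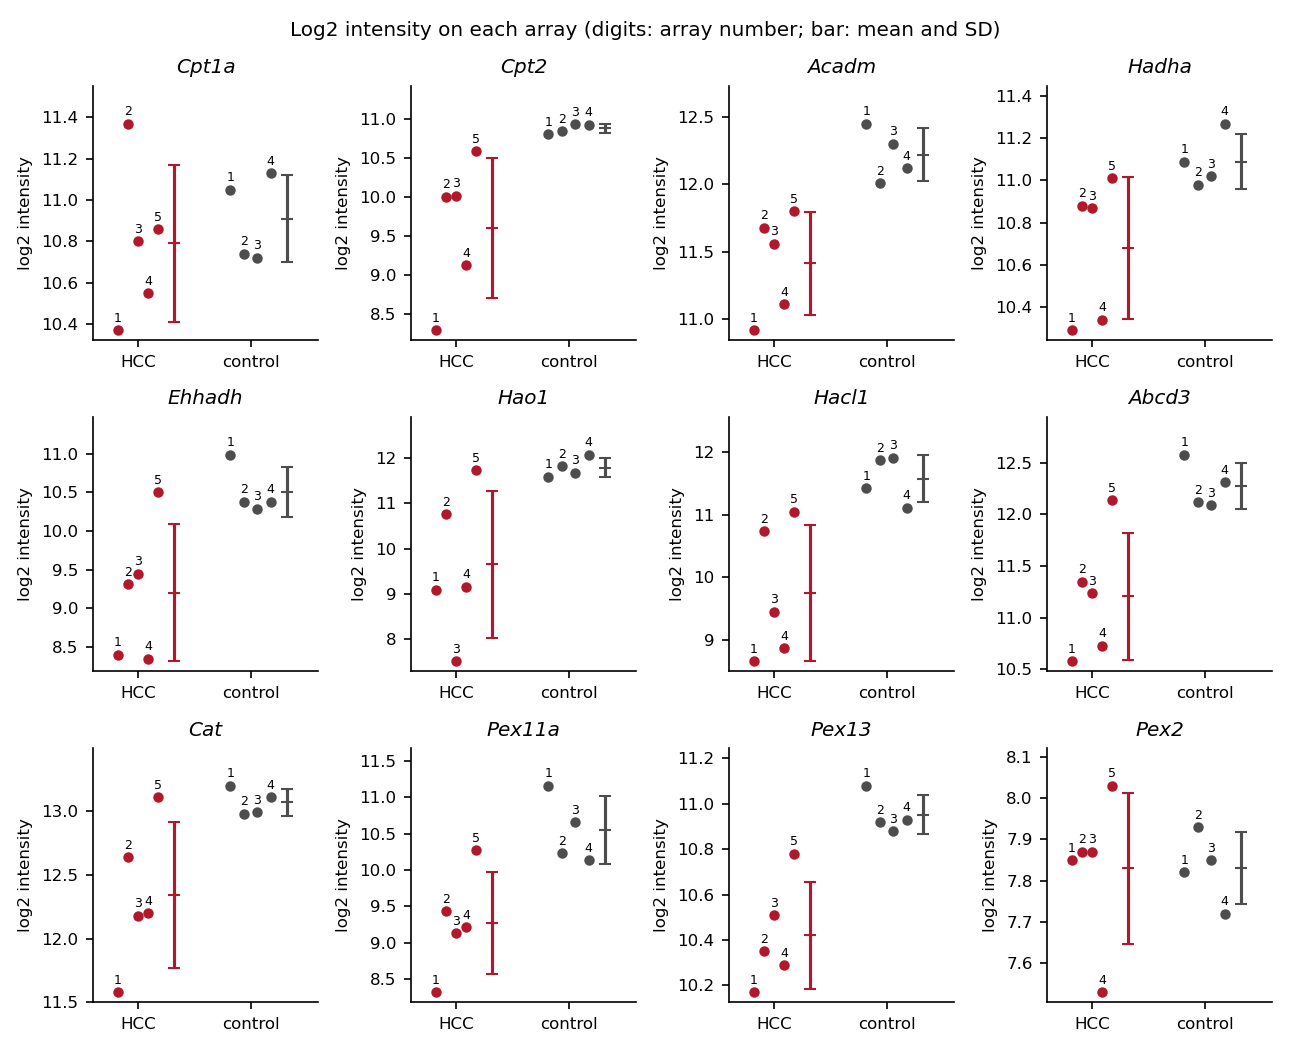
Log2 intensity of 12 genes on each array, with the 5 HCC arrays left of the 4 control arrays, digits giving the array number and bars the mean and SD. Each panel has its own axis. In Hao1 HCC array 5 (11.73) sits among the controls and HCC array 3 (7.52) lowest, and in Pex13 all 5 tumours lie below 10.88, the lowest control.

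The peroxins fall into receptors, docking factors and membrane proteins. Pex7, the receptor for enzymes with the amino-terminal targeting signal, was 8.93, 9.37, 9.51, 8.98 and 9.71 in HCC, against 9.96, 10.16, 9.96 and 10.00 in control liver. All tumours lay below all controls (log2 change -0.72, 1.65-fold, SE 0.16, adjusted p = 0.0695). Pex7 passed without HCC array 5 (-0.82, adjusted p = 0.0192), and also with dim probe sets left out, with renewed quantile normalisation and with array weights (adjusted p 0.039 to 0.0494). It did not pass with array medians subtracted, a trended and robust variance prior, averaged probe sets or Xist in the fit (adjusted p 0.0686 to 0.0791). Nor did it pass when any other single array was left out (adjusted p 0.0967 to 0.177). Pex5, the receptor for the carboxy-terminal signal, was 7.54 ± 0.44 in HCC and 8.0 ± 0.17 in control liver with overlap (adjusted p = 0.256).

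Pex13 and Pex14 form the docking site for the loaded receptors. Pex13 was 10.17, 10.35, 10.51, 10.29 and 10.78 in HCC, against 11.08, 10.92, 10.88 and 10.93 in control liver. The groups did not overlap, and its adjusted p of 0.0685 was the smallest of the 41 genes (log2 change -0.53, 1.45-fold, SE 0.12). Leaving out HCC array 5 gave -0.62 (adjusted p = 0.0113). Its promoter is shown beside that of Hao1 for its higher CG content, at chr11:23665884-23666133 (GRCm38.p6, minus strand, from RefSeq), with its 17 CG pairs in capitals.
Pex13: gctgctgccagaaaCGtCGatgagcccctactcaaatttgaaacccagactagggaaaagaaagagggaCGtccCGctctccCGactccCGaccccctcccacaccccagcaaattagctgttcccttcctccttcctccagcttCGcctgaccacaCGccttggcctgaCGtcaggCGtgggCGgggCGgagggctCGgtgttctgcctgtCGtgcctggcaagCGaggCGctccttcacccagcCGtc

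Pex14 was 7.52 ± 0.35 in HCC and 7.98 ± 0.10 in control liver, also without overlap (log2 change -0.46, adjusted p = 0.176).

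Pex3, Pex16 and Pex19 insert proteins into the peroxisomal membrane. Pex3 was 7.58, 7.79, 8.02, 8.07 and 8.25 in HCC and 8.28, 8.55, 8.65 and 8.56 in control liver. HCC array 5 and control array 1 nearly met (log2 change -0.57, adjusted p = 0.0867; -0.65 and 0.0304 without HCC array 5), and Pex3 was the only gene of the 41 called when Xist entered the fit (-0.67, adjusted p = 0.0452). Pex16 was 9.32 ± 0.66 in HCC and 10.12 ± 0.26 in control liver (adjusted p = 0.201), and Pex19 9.41 ± 0.53 in HCC and 9.79 ± 0.14 in control liver (adjusted p = 0.418).

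Pex11a, a PPARalpha-inducible protein of peroxisome division, had the largest change of the peroxins. It was 8.32, 9.43, 9.13, 9.21 and 10.27 in HCC, against 11.16, 10.23, 10.66 and 10.13 in control liver. HCC array 5 lay among the controls and the other tumours below (log2 change -1.27, 2.41-fold, adjusted p = 0.114; -1.52 and 0.0268 without HCC array 5). Pex2, a subunit of the ubiquitin ligase that recycles the receptors, was 7.83 ± 0.18 in HCC and 7.83 ± 0.09 in control liver. Its log2 change was -0.0031 (95% interval -0.23 to 0.23), and its sign turned under 5 alternatives. Pex6, an ATPase of the same recycling step, was 7.46 ± 0.20 in HCC and 7.62 ± 0.07 in control liver (adjusted p = 0.433). Of the 10 peroxins, 10 had a negative change, none was called, 6 had an unadjusted p below 0.05 and 4 did not overlap, with a median of -0.50. The shares over all genes were 57.5% negative, 9.85% lower at that p and 3.86% not overlapping.

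Promoter sequence in RefSeq (GRCm38.p6) was matched for 35 of the 41 measured genes and compared over the 250 bases before the start. CG pairs numbered 2.0 to 34.5 per gene with a median of 12, against a median of 11.0 over 15614 genes. The GC box GGGCGG, on either strand, was found in 60.0% of them and in 49.3% of all genes, CCAAT in 45.7% and 38.8%, and TATAAA in 5.71% and 12.5%. Across the 35 genes the count of CG pairs and the log2 change had a Spearman rho of 0.31 and a Pearson r of 0.24. Over all 15614 genes the values were 0.12 and 0.09. These correlations are across genes measured on the same 9 arrays, and are given as a description.

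PPARalpha binds with its partner RXR to a direct repeat spaced by 1 base, so AGGTCA followed by any base and AGGTCA again was searched on both strands. With up to 2 mismatches at the fixed bases, 2 of 36 of the named genes with a window held it, Cat and Etfa, against 3.72% of 27025 genes. With at most 1 mismatch none of the 36 held it, against 0.566% of genes. The closest match in Cat was AGGTCAGAGAACA and in Etfa AGGGCAAAGGTAA, starting 204 and 77 bases before the start. Sequence further from the start was not searched.

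**Figure D5:**
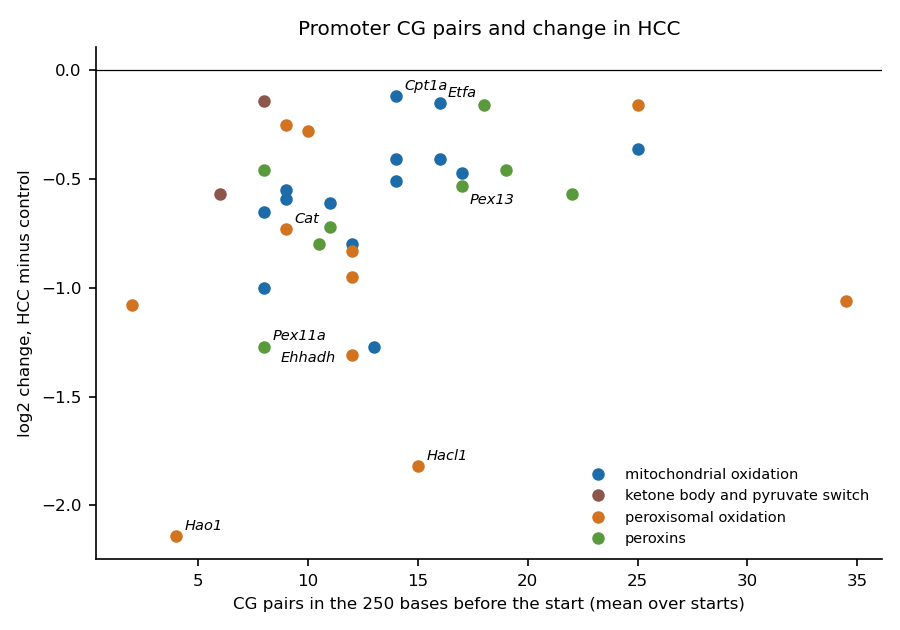
Number of CG pairs in the 250 bases before the start (mean over a gene's starts) against the log2 change, HCC minus control, for the 35 genes with promoter sequence. Points are genes, coloured by role. Hao1 with 4 pairs is lowest at -2.14, and Abcd3 with 34.5 pairs lies at -1.06.

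The regulators of the pathway were read from a list of 15 genes. Lpin1, a phosphatidate phosphatase that also serves as a coactivator of PPARalpha, was called lower and fell by 2.28 on the log2 scale: it was 7.29, 8.31, 7.80, 7.15 and 8.97 in HCC, against 10.16, 10.41, 10.36 and 9.78 in control liver (4.85-fold, adjusted p = 0.0344). All tumours lay below all controls. The call was lost when any of HCC arrays 2, 3 and 4 or any control array was left out (adjusted p 0.0511 to 0.126), with changes of -2.41 to -2.09.

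Ppara itself was 7.98, 9.67, 9.32, 8.79 and 9.88 in HCC, against 10.71, 10.23, 10.13 and 10.14 in control liver. No tumour reached the lowest control (log2 change -1.17, 2.25-fold, adjusted p = 0.130, and 0.0547 without HCC array 5). Its partner Rxra was at -0.55 (adjusted p = 0.216) and the fasting-induced factor Creb3l3 at -0.72 (adjusted p = 0.168). The coactivators Ppargc1a and Ppargc1b were at -0.42 and -0.24, the receptors Ppard and Esrra at -0.05 and -0.13, and the mitochondrial deacetylase Sirt3 at -0.43, with adjusted p between 0.279 and 0.664. Malonyl-CoA, which blocks Cpt1a, is made by Acaca and Acacb and removed by Mlycd, and these 3 were at -0.60, -0.50 and -0.60 (adjusted p 0.213 to 0.259). Foxa2 and Fgf21 were at 0.0047 and -0.053 and turned sign under alternatives, and Sirt1 was at 0.24 (adjusted p = 0.201).

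Beyond the 41 genes, 102 further genes of the lists were measured. In them 88 had a negative change (57.5% of all genes), 2 were called lower (Lpin1 and Acot3, against 0.160% of all genes) and none higher (0.858%). At an unadjusted p below 0.05, 47 were lower and 4 higher, against 9.85% and 10.5% of all genes, and the median was -0.44. Of 10 other PPARalpha targets 10 had a negative change with a median of -0.97. Acot3, an acyl-CoA thioesterase whose family members can share signal, was 7.11, 6.80, 6.50, 6.13 and 7.22 in HCC, against 9.93, 9.16, 9.47 and 7.79 in control liver (log2 change -2.33, adjusted p = 0.043). The controls varied widely, with control array 4 closest to the tumours. Leaving out any array but HCC array 5 or control array 4 ended the call (adjusted p 0.0588 to 0.141).

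In the other lists no gene was called, and the smallest adjusted p in each belonged to Acad11 (-1.50, 0.0868) of 15 other mitochondrial genes, Acot8 (-0.47, 0.0731) of 28 other peroxisomal genes, Acsl5 (-0.73, 0.109) of 11 uptake and activation genes, Pex11g (-0.53, 0.202) of 4 other peroxins and Fh1 (-0.61, 0.0695) of 16 citric acid cycle genes. The medians of these lists were -0.44, -0.49, -0.63, -0.12 and -0.27. The citric acid cycle, a mitochondrial pathway outside fatty acid oxidation, had 13 of 16 negative changes, 7 of them with an unadjusted p below 0.05, against 57.5% and 9.85% of all genes.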

How the data were processed

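Per the submitters' processing notes, RMA was used. The deposited values are intensities on a linear scale, for 35512 probe sets on 9 arrays, and GenePattern and R were used per the labels of the series. No version was stated. Scanner files and detection calls were not used, so a low intensity does not show absence, and the number of arrays limits the precision.

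From the deposited intensities log2 values were computed with no floor. Of the probe sets, 21789 had 1 gene symbol in the platform annotation, 1621 several and 12102 none. The first were used, 1 per gene by the highest mean, for 19938 genes. HCC was compared with control by limma 3.58.1 (R 4.3.3), two-sided, with Benjamini-Hochberg adjustment over all genes. The labels do not tie arrays to separate animals, so p-values measure the spread between arrays. The fit was tested on simulated data. Genes, lists, promoter motifs and alternatives were chosen with earlier results of these data known. All measured genes of the 42 were named, as were all regulators and ketone body genes, and from each other list the called genes or the smallest adjusted p. Plots used Python 3.11.15 and matplotlib 3.10.9.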

Additional observations from a re-analysis of the deposited data

Results flagged for a closer look

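In 138 groups (69 named genes in HCC and in control liver), 2 held an array whose gap to its nearest neighbour was unusually wide for the group's range by Dixon's test, where chance gives about 1 in 20. Ehhadh was 10.99 on control array 1, with the other controls at 10.29 to 10.38. Ppard was 6.58 on control array 4, with the other controls at 6.43 to 6.44.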

How the results depend on the processing

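Of 17 alternatives, none gave a higher call among the 41 genes. Lower calls among them, 0 with all arrays, were 1 (Pex7) with dim probe sets left out and 1 (Pex7) with renewed quantile normalisation, 6 with array weights (Acadm, Decr1, Hacl1, Pex13, Pex3, Pex7), 3 with the replicate number as a block (Hacl1, Pex3, Pex7), 1 (Pex3) with the Xist level as a covariate, and 0 to 17 with 1 array left out, 17 without HCC array 5. Over all genes, 171 were higher: 285 without dim probe sets, 503 with array weights, 259 with the replicate block and 10 to 631 with 1 array left out. The 32 lower genes became 93 without dim probe sets, 49 with quantile normalisation, 246 with array weights, 220 with the replicate block and 0 to 556 with 1 array left out. The cause was not tested. Same-numbered arrays deviated together by correlations of -0.064 to 0.298, and differently numbered ones by -0.206 to 0.224. Whether the numbers pair the arrays was not tested. The block also drops HCC array 5, which has no partner.

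Signs turned in genes with changes near 0, whose lowest or highest values with 1 array left out were otherwise -0.32 for Bdh1, -0.15 for Crat, -0.053 for Pex2, 0.066 for Foxa2, -0.13 for Fgf21 and 0.26 for Slc16a1. With quantile normalisation Cpt1a was 0.017, Foxa2 -0.06 and Slc16a1 -0.001. With array medians subtracted Foxa2 was -0.016. With array weights Bdh1 was 0.074 and Pex2 0.018. With the Xist covariate Pex2 was 0.023 and Fgf21 0.017. Without HCC array 1 Crat was 0.012, without HCC array 2 Foxa2 was -0.026 and Slc16a1 -0.057, without HCC array 3 Foxa2 was -0.012 and Slc16a1 -0.0093, and without HCC array 4 Bdh1 was 0.037 and Pex2 0.073. Without control array 1 Foxa2 was -0.029 and Fgf21 0.055, without control array 2 Pex2 was 0.031, without control array 3 Pex2 was 0.0031 and Foxa2 -0.013, and without control array 4 Foxa2 was -0.0049.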

Other observations

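Against the direction of most genes of the lists, 2 of the 28 other peroxisomal genes had every HCC array above every control array. That held for 5.63% of all genes. In 6 of the 28 every HCC array lay below every control, against 3.86% of all genes. The 2 higher genes were chosen after their values were seen. Nudt19, a peroxisomal coenzyme A hydrolase, was 10.67, 9.22, 9.73, 10.46 and 9.45 in HCC, against 8.78, 8.63, 9.02 and 8.88 in control liver (log2 change 1.08, limma adjusted p = 0.104). HCC arrays 1 and 4, the lowest in the oxidation genes, were the highest here. Far1, which makes fatty alcohols for ether lipids, was 7.24, 7.96, 7.29, 7.24 and 7.62 in HCC, against 6.70, 7.22, 6.96 and 6.60 in control liver (log2 change 0.60, limma adjusted p = 0.129). Neither was called.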
